A study of Mus musculus with 12 samples.

Results

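Primary astrocyte cultures from wild-type (WT) brain taken at postnatal day (P) 8 were compared with cultures taken at P1, using 4 of the 12 RNA-seq libraries of the series. The members were chosen by their labels alone, as the libraries labelled WT with the time of postnatal day 1 (2 libraries) or postnatal day 8 (2 libraries), and no measured value entered the choice. The WT animals carried the Cre transgene driven by the human GFAP promoter together with unfloxed *Rack7* (hGFAP-cre:: *Rack7* +/+). The floxed allele of the series was made in C57BL/6 zygotes, and the study does not give the strain of the Cre line. The other 8 libraries were P6 WT and P1, P6 and P8 cultures labelled cKO (hGFAP-cre:: *Rack7* fl/fl), again 2 libraries each, so the WT and cKO groups shared the Cre transgene. *Rack7* is another name of *Zmynd8*, a chromatin reader, and the human GFAP promoter drives Cre in neural stem cells before birth, so its activity is not limited to astrocytes. The day refers to the age of the animal at dissection. The brain tissue was stripped of meninges, digested and then grown for some 10 days in astrocyte medium, the flasks were shaken to detach microglia and oligodendrocytes, and the cells were grown on to confluence. What was measured is therefore the RNA of cultures founded at 2 ages, not the RNA of astrocytes as they were in the brain at those ages. The sources call the libraries biological repeats and do not give the number of animals behind each, and no label gives a preparation batch, so the day and any batch that went with it cannot be told apart.

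In the brain, astrocytes arise from radial glia and from precursors that go on dividing after birth, and in the first postnatal weeks they stop dividing and build up the transporters, channels and gap junctions through which they clear glutamate and potassium. Cultures of neonatal brain are mixed to some degree. Besides astrocytes they can hold neural progenitors, oligodendrocyte precursors, microglia, and fibroblasts, mural cells and endothelial cells that come with vessels and residual meninges. Fibroblasts of the meninges are a known source of fibrillar collagen, small proteoglycans, insulin-like growth factor 2 (Igf2) and retinoic acid for the developing cortex.

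Total counts ran from 55681255 to 76280438 over the 4 libraries, and from 17943 to 18206 genes had at least 1 count. Levels are given as CPM, the gene's count per 1000000 counts of the library's effective size, that is its total count multiplied by the trimmed mean of M-values (TMM) factor, which ran from 0.984 to 1.07. The replicates of each day had Spearman correlations of 0.992 (P1) and 0.993 (P8) across genes, against 0.932 to 0.933 between days, and their counts differed from each other by more than sampling noise (chi-square per degree of freedom 35.9 and 39.8), so they were counted as separate libraries. The first principal component of the 4 libraries held 82.35% of the variance. The gene targeted in the series, *Zmynd8*, stood at 136 and 136 CPM in the P1 WT libraries and 99.98 and 104 CPM in the P8 WT libraries, a change under the 1.5-fold limit used here (log2 fold change -0.42 ± 0.05 (SE), edgeR adjusted p = 7e-05). In the libraries labelled cKO it was higher than in WT at the same day, at 213 and 216 CPM at P1 and 160.4 and 171 CPM at P8. Counts per gene do not separate the floxed part of the gene, so this does not check the deletion, and "cKO" below is used as a label. The P1 and P8 libraries of both labels expressed Y-linked genes, with *Xist* at no more than 0.915 CPM. All 4 P6 libraries had *Xist* between 825 and 1436 CPM, so the P6 libraries differ from those of P1 and P8 in sex-linked expression.

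Of the 18903 genes in the table, 17938 had enough counts to be tested. A gene was called when its p from the quasi-likelihood test of edgeR, adjusted by Benjamini-Hochberg, was below 0.05 and its fold change was at least 1.5. By this rule 2580 genes were higher at P8 and 2692 were lower, which is 14.4% and 15.0% of the genes tested, or 29.4% together. These shares are the background for each list below, and the median log2 fold change over all genes tested was -0.01. For all 5272 genes called, both libraries of one day lay above both libraries of the other. A call itself requires the days to be apart relative to the spread, so this is no separate support. The share of genes so separated among all 17938 tested is not given. With 2 libraries a group an exact permutation test of a single gene cannot go below p = 0.333. Each call therefore rests on the spread of the gene within the groups of all 12 libraries, including P6 and cKO. In edgeR this spread is moderated by that of the other genes. By fitted fold change, large rises outnumbered large falls. A rise of at least 4-fold was seen for 890 genes and a fall of that size for 641, while at 16-fold the numbers were 418 and 119, and at 64-fold 229 and 71. Among the genes that were higher at P8, 134 had no count in either P1 library, and among those lower at P8, 58 had no count in either P8 library. The fitted fold of such genes depends on the prior count, and the numbers at 4-fold, 16-fold and 64-fold were taken without a bound. How many of the large changes these genes make up was not counted.

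**Figure D1:**
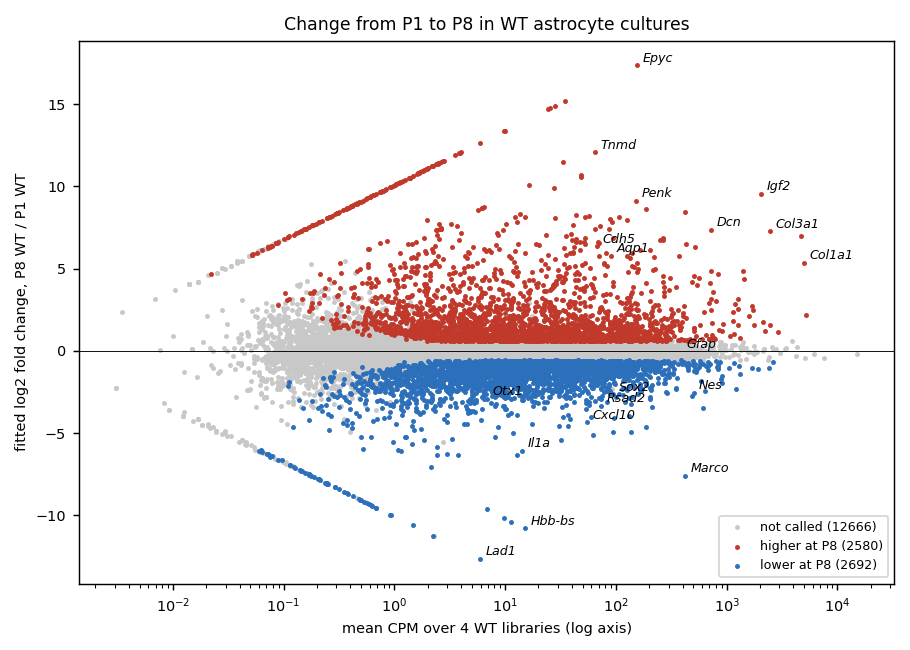
The fitted log2 fold change of P8 WT over P1 WT (vertical axis) is plotted against the mean CPM over the 4 WT libraries (horizontal log axis) for the 17938 genes tested, with 2580 genes called higher at P8 in red, 2692 called lower in blue and 12666 not called in grey. *Col1a1*, *Col3a1* and *Igf2* lie at the upper right with high levels and large rises, *Marco* stands apart at the lower right, and the straight lines of points at the left edges are genes without a count at one of the days, whose fitted change depends on the prior count.

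By fitted log2 fold change, whose order among genes with a group at or near 0 depends on the prior count, the 10 largest rises among genes with a mean of at least 5 CPM were *Epyc*, *Alb*, *C4bp*, *Ptgdr*, *Prdm6*, *Atp6v0a4*, *Dnah8*, *Fam19a1*, *Tnmd* and *Lrrc17*. *Epyc* encodes epiphycan, a small leucine-rich proteoglycan known from cartilage, and lies at chr10:97644068-97682454, plus strand of the GRCm38 (mm10) assembly. It had no count in either P1 library and 307 and 312 CPM in the P8 libraries. Against the limit that 3 counts over the P1 group allow (0.0213 CPM), *Epyc* was at least 14563-fold higher at P8 (edgeR adjusted p = 3.6e-08). *Alb* (albumin, the main plasma protein made by liver) likewise went from 0 to 70.2 and 68.7 CPM, at least 3266-fold higher at P8 (edgeR adjusted p = 7.3e-06). *Alb* also stood at 30.8 and 37.7 CPM in the P8 libraries labelled cKO and at 0 in those of P1. *C4bp*, which encodes a complement-binding protein, and *Ptgdr*, the prostaglandin D2 receptor, reached 54.99 and 57.6 CPM and 48.6 and 52.8 CPM from 0. *Prdm6*, a transcriptional repressor known from smooth muscle, reached 49.8 and 48.6 CPM, also from 0. *Atp6v0a4*, a proton pump subunit, *Dnah8*, a dynein chain of cilia and flagella, and *Fam19a1*, a secreted chemokine-like protein, were also at 0 at P1 and between 11.7 and 20.6 CPM at P8. *Tnmd*, tenomodulin of tendons and ligaments, went from 0 and 0.0492 CPM to 131 and 129 CPM. *Lrrc17*, a secreted leucine-rich repeat protein, had 0 and 0.0369 CPM at P1 and 62.6 and 70.2 CPM at P8, a ratio of 3139 with a 95% exact counting interval of 1074 to 15222.

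The 10 largest falls, ordered in the same way, were *Lad1*, *Hbb-bs*, *Hba-a1*, *Hba-a2*, *Hbb-bt*, *Marco*, *Cxcl9*, *Il1a*, *Igfbpl1* and *Kcnip1*. *Marco* (chr1:120474538-120505024, minus strand), a scavenger receptor of macrophages, had 840.5 and 846 CPM at P1 and stood at 4.25 and 4.36 CPM at P8 (log2 fold change -7.61 ± 0.10 (SE), edgeR adjusted p = 8.7e-11). The days were far apart and the replicates close. The haemoglobin genes *Hbb-bs*, *Hba-a1*, *Hba-a2* and *Hbb-bt* are made in red blood cells, and they had between 10.5 and 33.4 CPM in the P1 libraries and at most 0.0336 CPM in the P8 libraries. For *Hbb-bs* the ratio of P1 to P8 was 1955 with a 95% exact counting interval of 541 to 16147. The adult globins are near-identical pairs, so the split of counts within the alpha pair and within the beta pair is uncertain. *Lad1*, an anchoring filament protein of basement membranes, went from 12.9 and 10.99 CPM to 0, at least 525-fold lower (edgeR adjusted p = 3.1e-07). *Igfbpl1*, an insulin-like growth factor binding protein relative found in immature neural cells, had 63.6 and 62.1 CPM at P1 and 1.41 and 1.52 CPM at P8 (log2 fold change -5.42 ± 0.13 (SE), edgeR adjusted p = 2.9e-09). *Kcnip1*, a subunit of A-type potassium channels, had 14.7 and 17.1 CPM and 0.336 and 0.499 CPM.

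**Figure D2:**
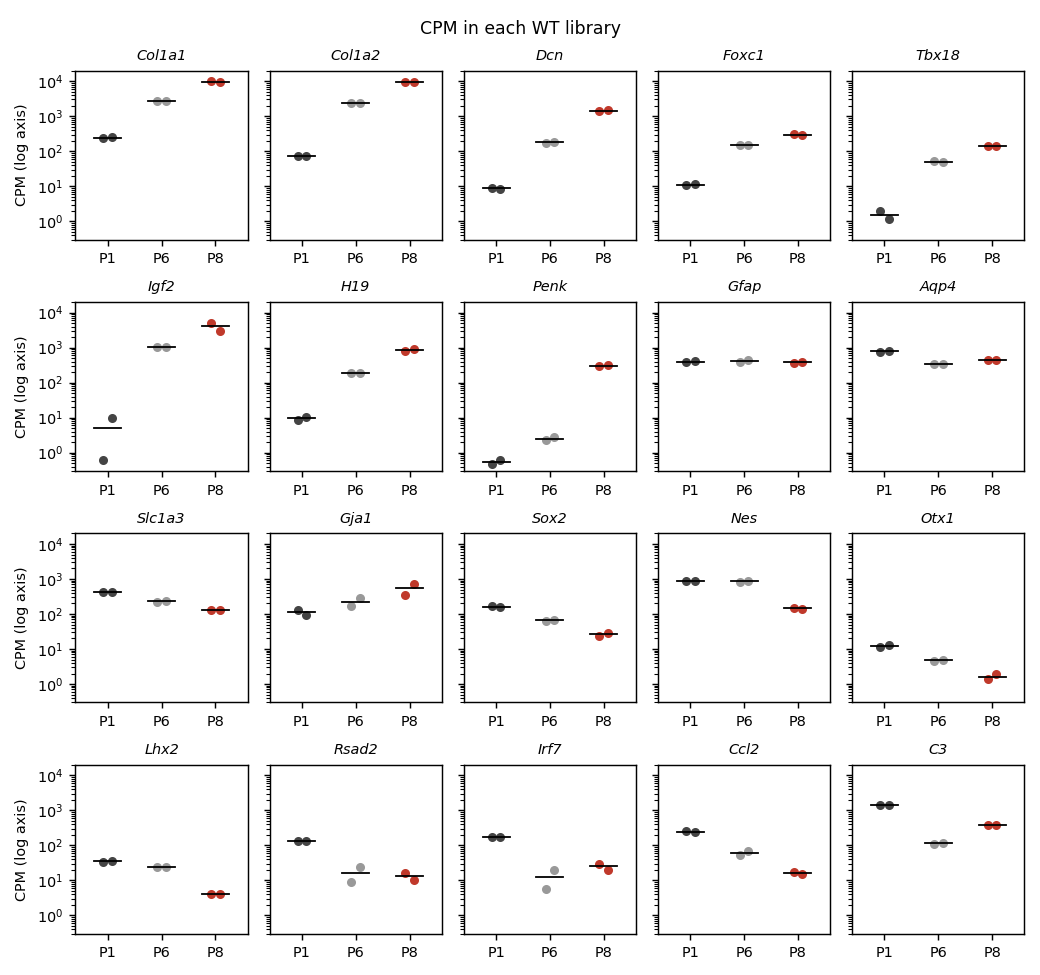
Each panel plots 1 gene, with the CPM of the 2 WT libraries of P1, P6 and P8 as points on a common log axis and the mean as a line. The first 8 panels, from left to right, hold genes that were higher at P8, such as *Col1a1* and *Dcn*, *Gfap* lies near one level at all 3 days, and *Sox2*, *Nes*, *Otx1*, *Lhx2*, *Rsad2*, *Irf7*, *Ccl2* and *C3* were lower at P8 than at P1. The P6 points come from libraries that express *Xist*.

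Fibroblast markers were much higher in the P8 cultures. Of the 18 markers tested, 16 were called higher at P8 and 1 lower, with a median log2 fold change of 5.05. *Col1a1* (chr11:94936224-94953042, plus strand), the alpha 1 chain of type I collagen, had 233 and 249 CPM at P1 and 9912 and 9529 CPM at P8 (log2 fold change 5.33 ± 0.05 (SE), edgeR adjusted p = 2.9e-11). *Col1a2*, its partner chain, went from 74.8 and 74.3 CPM to 9168 and 9307 CPM, and *Col3a1* (chr1:45311538-45349706, plus strand) from 33.8 and 30.8 CPM to 4915 and 4966 CPM. For each of the 3 fibrillar collagen genes the days were far apart and the replicates close. *Dcn* (chr10:97479609-97518143, plus strand), the proteoglycan decorin, had 9.12 and 8.55 CPM at P1 and 1412 and 1479.9 CPM at P8 (log2 fold change 7.36 ± 0.19 (SE), edgeR adjusted p = 4.1e-09). *Lum*, lumican, had 0.520 and 0.995 CPM and 126 and 131 CPM. The transcription factors of meningeal fibroblasts and mural cells in the list moved the same way, *Foxc1* (chr13:31806633-31812476, plus strand) from 10.7 and 11.4 CPM to 304 and 293 CPM (log2 fold change 4.76 ± 0.16 (SE), edgeR adjusted p = 2.1e-08) and *Tbx18* from 1.94 and 1.13 CPM to 141 and 141 CPM (log2 fold change 6.54 ± 0.23 (SE), edgeR adjusted p = 2.3e-08). *Egfl6*, a secreted matrix protein, had 0 and 0.0492 CPM at P1 and 31.03 and 34.4 CPM at P8. *Pdpn*, podoplanin, which astrocytes and other cells also make, was the 1 member called lower, from 174 and 179 CPM to 109 and 111 CPM. *Fap*, a surface protease of activated fibroblasts, had a log2 fold change of 1.61 ± 0.69 (SE) and was not called (edgeR adjusted p = 0.084). It was called by DESeq2 (adjusted p = 0.0016). By edgeR it was called on the 4 compared libraries alone (adjusted p = 0.0068) and on the 8 P1 and P8 libraries alone (0.0037). It was also called without either P6 cKO library, at a log2 fold change of 1.61 in both fits. The summed level of the list ran from 833 to 853 CPM in the P1 libraries and from 30227 to 32430 CPM in the P8 libraries, and no marker tested was at 0 in both libraries of a day. These are bulk libraries, in which fewer cells of a type and less RNA per cell cannot be told apart, and the part that fibroblasts had in any other change at P8 was not tested.

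Extracellular matrix genes were higher at P8 in large part, and *Col1a1*, *Col1a2*, *Col3a1*, *Dcn*, *Lum* and *Ogn* belong to the fibroblast list as well. Of 35 collagen chain genes tested, 26 were called higher and 5 lower (median log2 fold change 2.33), and their summed level went from 3415 to 3449 CPM at P1 to 39140 to 39312 CPM at P8. The 5 collagens that were lower included *Col22a1*, a collagen of tissue junctions, with 17.5 and 18.3 CPM at P1 and 1.33 and 2.08 CPM at P8 (log2 fold change -3.38 ± 0.22 (SE), edgeR adjusted p = 1.5e-06), and the basement membrane chains *Col4a3*, *Col4a5* and *Col4a6*, whose partners *Col4a1* and *Col4a2* were called higher. The fifth was *Col20a1*, whose call was lost without P8 WT replicate 2 (adjusted p = 0.0742). Of 13 small leucine-rich proteoglycans, which bind collagen fibrils, 11 were called higher and 2 lower (median 3.83). *Bgn*, biglycan, had 138 and 131 CPM at P1 and 2669.6 and 2758 CPM at P8 (log2 fold change 4.34 ± 0.05 (SE), edgeR adjusted p = 4.1e-11), and *Aspn*, asporin, 0.0671 and 0.0492 CPM and 95.5 and 97.1 CPM. Both went far beyond the spread of their replicates. *Prelp* went the other way, from 319.95 and 327 CPM to 131 and 133 CPM (log2 fold change -1.30 ± 0.05 (SE), edgeR adjusted p = 3.6e-08). Of 26 matrix proteases and inhibitors, 13 were called higher and 1 lower (median 0.71). *Mmp2*, a gelatinase, had 26.8 and 27.1 CPM at P1 and 593 and 581 CPM at P8 (log2 fold change 4.45 ± 0.07 (SE), edgeR adjusted p = 1.8e-10). *Adamts2*, which trims procollagen, went from 6.12 and 6.61 CPM to 156 and 153 CPM. *Timp3*, an inhibitor anchored in the matrix, differed by less than the limit, with 998 and 1003 CPM and 1248 and 1264 CPM. *Mmp15*, a membrane protease, was the member called lower (32.3 and 34.7 CPM at P1 and 14.7 and 14.2 CPM at P8). Without P8 WT replicate 2, 3 proteases were called lower.

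Markers of vessel and muscle cells split. Of 8 mural markers 5 were called higher and 0 lower (median 1.78). *Pdgfrb*, the platelet-derived growth factor receptor of pericytes and fibroblasts, had 46.4 and 48.4 CPM at P1 and 219 and 221 CPM at P8 (log2 fold change 2.22 ± 0.05 (SE), edgeR adjusted p = 2.1e-09). *Ndufa4l2*, which overlaps the gene Shmt2 in the annotation, had 0.0503 and 0 CPM and 0.656 and 0.623 CPM, and its call (edgeR adjusted p = 0.032) was lost without P1 WT replicate 2 (adjusted p = 0.147), without P8 WT replicate 1 (0.0852), without P8 WT replicate 2 (0.0826), and without either P8 cKO library (0.0529 and 0.0546). Of 9 endothelial markers 4 were called higher and 2 lower (median 0.85). *Cdh5*, the cadherin of endothelial junctions, went from 1.54 and 1.72 CPM to 125 and 141 CPM (log2 fold change 6.35 ± 0.21 (SE), edgeR adjusted p = 2e-08), and *Tek*, the angiopoietin receptor, from 0.251 and 0.147 CPM to 13.1 and 13.2 CPM. The other endothelial receptor *Kdr* and the clotting factor gene *Vwf* were lower at P8, *Kdr* with 18.02 and 15.9 CPM at P1 and 3.40 and 3.35 CPM at P8, and *Vwf* with 4.17 and 5.06 CPM and 0.286 and 0.887 CPM. The endothelial list therefore did not move as one. Of 16 smooth muscle genes 5 were called higher and 1 lower, with a median of -0.02. *Actg2*, the enteric smooth muscle actin, had 0.536 and 0.786 CPM at P1 and 179 and 170.4 CPM at P8 (log2 fold change 8.02 ± 0.18 (SE), edgeR adjusted p = 1.5e-09), whereas *Acta2*, the actin that marks smooth muscle and myofibroblasts, had 1675 and 1679 CPM and 1595 and 1581 CPM and was not called. *Flna*, the actin cross-linker filamin A, had 1809.8 and 1816 CPM and 1840.2 and 1687 CPM and was not called either. *Cnn1*, calponin, was lower at P8, from 192 and 198 CPM to 40.2 and 40.3 CPM (log2 fold change -2.28 ± 0.09 (SE), edgeR adjusted p = 7.7e-08). Without P1 WT replicate 2 or P8 WT replicate 2, 2 of the 16 were called lower.

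**Figure D3:**
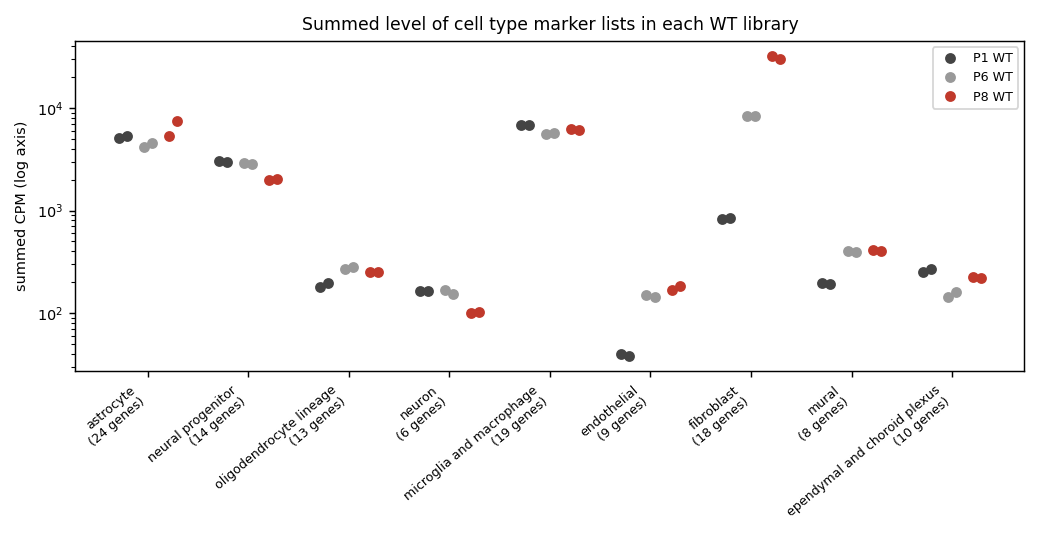
For each of 9 lists of cell type markers, the summed CPM of the members tested is plotted on a log axis, with 1 point for each WT library and P1, P6 and P8 side by side. The fibroblast list goes from 833 to 853 CPM at P1 to 30227 to 32430 CPM at P8 and the endothelial list from 38.1 to 40.1 CPM to 168 to 184 CPM. The endothelial sum at P8 was in large part *Cdh5*, and of the 9 members tested 4 were called higher and 2 lower. The astrocyte list lies at 5147 to 5318 CPM at P1 and 5327 to 7506 CPM at P8. At P8 the astrocyte sum was in large part *Apoe*, which rose, and of the 24 members 6 were called higher and 11 lower.

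Astrocyte markers, by which the label of the cells was checked, were present at both days, and they changed in both directions. None of the 24 markers tested was at 0 in both libraries of a day, 6 were called higher at P8, 11 lower and 7 not called (median log2 fold change -0.28). *Gfap* (chr11:102887336-102900912, minus strand), the intermediate filament protein by which astrocytes are most often identified, had 390.4 and 402 CPM at P1 and 372 and 384 CPM at P8 (log2 fold change -0.07 ± 0.06 (SE), edgeR adjusted p = 0.39). Its days differed by less than the limit. *Aldh1l1* (chr6:90486427-90600203, plus strand), a folate enzyme used as a general astrocyte marker, was lower at P8, with 281 and 292 CPM against 52.4 and 51.3 CPM (log2 fold change -2.47 ± 0.07 (SE), edgeR adjusted p = 8.3e-09). *Slc1a3*, the glutamate transporter GLAST, went from 416 and 433 CPM to 129 and 129.6 CPM (log2 fold change -1.71 ± 0.08 (SE), edgeR adjusted p = 2.3e-07). *Aqp4*, the water channel of astrocyte endfeet, had 773 and 786 CPM at P1 and 443 and 451 CPM at P8 (log2 fold change -0.80 ± 0.07 (SE), edgeR adjusted p = 1.4e-05). The secreted chaperone clusterin (*Clu*) also fell, from 429 and 458 CPM to 122 and 105 CPM. Other markers were higher at P8. *Gja1*, the gap junction protein connexin 43, had 132 and 91.4 CPM at P1 and 359.7 and 712 CPM at P8 (log2 fold change 2.27 ± 0.34 (SE), edgeR adjusted p = 0.00044), *S100b*, a calcium-binding protein, 1.07 and 0.995 CPM and 11.8 and 10.1 CPM (log2 fold change 3.41 ± 0.23 (SE), edgeR adjusted p = 2.2e-06), and *Apoe*, the main lipid carrier of the brain, 962 and 988 CPM and 2392 and 4198 CPM (log2 fold change 1.76 ± 0.24 (SE), edgeR adjusted p = 0.00025). The P8 libraries were apart from each other for *Gja1* and *Apoe*, with replicate 2 the higher, and both still lay above both P1 libraries. *Slc1a2*, the glutamate transporter GLT-1, was not called (78.3 and 84.9 CPM at P1 and 94.5 and 102 CPM at P8).

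Of 21 genes for glutamate and potassium handling 5 were called higher and 9 lower (median -0.29). The rises were in amino acid and cation carriers. *Slc7a11*, the cystine-glutamate exchanger, had 50.2 and 49.3 CPM at P1 and 495 and 498 CPM at P8 (log2 fold change 3.32 ± 0.09 (SE), edgeR adjusted p = 4.1e-09), and *Slc38a2*, a neutral amino acid transporter, 170.4 and 177 CPM and 668 and 709 CPM (log2 fold change 1.99 ± 0.05 (SE), edgeR adjusted p = 2.7e-09). The falls included 5 potassium channels, with *Kcnk10* going from 39.8 and 42.3 CPM to 4.19 and 3.20 CPM (log2 fold change -3.48 ± 0.13 (SE), edgeR adjusted p = 3.8e-08). Of 25 genes known to rise in reactive astrocytes 5 were called higher and 9 lower (median -0.28), and their summed level was 7011 to 7024 CPM at P1 and 4090 to 4178 CPM at P8. *C3*, the complement component, had 1428 and 1439 CPM at P1 and 375 and 375 CPM at P8 (log2 fold change -1.93 ± 0.11 (SE), edgeR adjusted p = 8.2e-07). *Lcn2*, lipocalin 2, had 209 and 191 CPM and 35.4 and 27.6 CPM, and the filament protein vimentin (*Vim*) 2265 and 2236 CPM and 1109.5 and 1111 CPM. All 3 were lower at P8 without overlap. *Fbln5*, an elastic fibre protein in this list, went up instead, from 15.3 and 28.1 CPM to 262 and 253 CPM.

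Neural progenitor genes were lower at P8. Of 14 tested, 11 were called lower and 1 higher (median log2 fold change -1.53), and the summed level went from 3004 to 3014 CPM to 1993 to 2028 CPM. *Sox2* (chr3:34650405-34652461, plus strand), the transcription factor of neural stem cells and glia, had 168 and 158 CPM at P1 and 24.1 and 28.2 CPM at P8 (log2 fold change -2.64 ± 0.09 (SE), edgeR adjusted p = 1.7e-08). *Nes* (chr3:87971078-87980451, plus strand), the filament protein nestin, had 864 and 856 CPM and 152 and 142 CPM (log2 fold change -2.55 ± 0.04 (SE), edgeR adjusted p = 3.1e-10). *Tnc*, tenascin C, went from 1131 and 1132 CPM to 514 and 538 CPM (log2 fold change -1.10 ± 0.04 (SE), edgeR adjusted p = 5e-08), and *Pax6*, a regulator of radial glia, from 31.1 and 31.3 CPM to 7.32 and 4.92 CPM. In each of these genes the P8 libraries lay below the P1 libraries. *Egfr* (chr11:16752203-16918158, plus strand), the epidermal growth factor receptor, which progenitors, astrocytes and fibroblasts can all express, was the exception, with 50.7 and 51.2 CPM at P1 and 903 and 930.3 CPM at P8 (log2 fold change 4.17 ± 0.06 (SE), edgeR adjusted p = 1.8e-10).

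Most forebrain and midbrain or hindbrain patterning genes were called lower too. Of 16 forebrain patterning genes 10 were called lower and 4 higher (median -1.89), while their summed level, carried at P8 by *Zic1*, was higher at P8, with 325 to 340 CPM at P1 and 475 to 498 CPM at P8. *Lhx2*, a regulator of the cortical primordium, had 34.6 and 36.8 CPM at P1 and 4.05 and 3.98 CPM at P8 (log2 fold change -3.15 ± 0.13 (SE), edgeR adjusted p = 7.5e-08), and *Otx1* 11.4 and 13.04 CPM and 1.38 and 1.88 CPM. The 4 members called higher were *Zic1*, *Zic2*, *Zic4* and *Zic5*, zinc finger factors expressed in dorsal neural tissue and in meninges. *Zic1* had 37.6 and 33.1 CPM at P1 and 256 and 265 CPM at P8 (log2 fold change 2.88 ± 0.11 (SE), edgeR adjusted p = 4.9e-08). Of 13 midbrain and hindbrain patterning genes 8 were called lower and 2 higher (median -1.52), with *Pax2* at 2.50 and 3.20 CPM and 0.0673 and 0.0416 CPM, *Irx3* at 16.5 and 18.1 CPM and 8.36 and 6.73 CPM, and *Lmx1b*, one of the rises, at 0.369 and 0.799 CPM and 12.1 and 11.4 CPM. The other rise, *En1*, was lost without P1 WT replicate 1 (adjusted p = 0.12), P8 WT replicate 1 (0.0983) or P8 WT replicate 2 (0.0703), and on the 4 compared libraries alone (0.134) or the 8 P1 and P8 libraries alone (0.0629). Hox genes, which mark hindbrain and spinal cord, were at low levels, with a summed level of 11.05 to 11.7 CPM at P1 and 6.51 to 7.3 CPM at P8. Of 12 tested, 1 was called lower, *Hoxc5* (edgeR adjusted p = 0.018), which overlaps other Hox genes in the annotation and lost its call without P1 WT replicate 2 (adjusted p = 0.0789) or P8 WT replicate 2 (0.0756), and on the 4 compared libraries alone (0.0675). *Hoxb4* had 2.63 and 2.63 CPM and 1.72 and 1.47 CPM and was not called, although it was called lower by DESeq2 (adjusted p = 0.0314) and by edgeR without P1 cKO replicate 1 (0.0387) or replicate 2 (0.0369). By DESeq2 and by edgeR on the 8 P1 and P8 libraries alone, 3 Hox genes were called lower. Of 24 gliogenic transcription factors 11 were called lower and 2 higher (median -0.45). *Fezf2*, a regulator of cortical projection neurons, had 3.91 and 4.65 CPM at P1 and 0 and 0.0554 CPM at P8, and *Hes1*, a Notch effector, rose from 18.3 and 15.3 CPM to 41.7 and 39.2 CPM (log2 fold change 1.27 ± 0.15 (SE), edgeR adjusted p = 9e-05). *Zbtb20*, a repressor that promotes astrocyte formation, had 402 and 672 CPM at P1 and 294 and 314 CPM at P8 (edgeR adjusted p = 0.026). Its P1 libraries were far apart, and the call was lost without P1 WT replicate 2 (adjusted p = 0.227), P8 WT replicate 1 (0.112) or P8 WT replicate 2 (0.0807).

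Markers of the other glial and neural cells changed in both directions. Of 13 oligodendrocyte lineage genes 6 were called higher and 4 lower (median 0.53). *Olig2*, the lineage factor, had 17.1 and 17.6 CPM at P1 and 4.76 and 4.45 CPM at P8, and *Nkx2-2* 5.41 and 4.56 CPM and 0.942 and 0.443 CPM. Both fell. The 6 members called higher included *Mal* and *Mbp*, myelin protein genes, and *Sox10*, a lineage factor, with *Mbp* at 16.2 and 18.3 CPM and 26.6 and 30.7 CPM and *Sox10* at 1.69 and 2.30 CPM and 5.31 and 3.88 CPM. The call of *Sox10* (edgeR adjusted p = 0.039) was lost without P1 WT replicate 1 (adjusted p = 0.182) or 2 (0.0728), P8 WT replicate 1 (0.177) or 2 (0.0549) or either P1 cKO library (0.0539 to 0.0542), and under the replicate block (0.0564). The others were *Pdgfra*, with 1.81 and 3.56 CPM and 15.5 and 17.1 CPM, *Cspg4*, with 20.7 and 24.9 CPM and 85.6 and 85.9 CPM, and *Cldn11*, a claudin also known from meninges, with 0.268 and 0.541 CPM and 36.6 and 38.6 CPM. Of 6 neuron genes tested 2 were called higher and 2 lower (median -0.01), and the list summed to 162 to 163 CPM at P1 and 101 to 102 CPM at P8, most of it at P1 *Stmn2*, a microtubule regulator (123 and 122 CPM at P1 and 50.2 and 49.5 CPM at P8). *Syt1*, a synaptic vesicle protein, had 2.03 and 2.26 CPM and 0.622 and 0.845 CPM, and *Nefm*, a neurofilament, 2.83 and 2.99 CPM and 6.44 and 7.38 CPM. Without P1 WT replicate 1 or P8 WT replicate 1, 1 neuron gene was called higher. Of 10 ependymal and choroid plexus genes 5 were called lower and 1 higher (median -0.92). *Foxj1*, the regulator of motile cilia, had 214 and 221 CPM at P1 and 24.1 and 25.5 CPM at P8 (log2 fold change -3.13 ± 0.09 (SE), edgeR adjusted p = 9e-09). *Aqp1*, a water channel also found in other cells, was the member called higher, from 2.90 and 3.56 CPM to 182 and 177 CPM (log2 fold change 5.79 ± 0.18 (SE), edgeR adjusted p = 1.1e-08). By edgeR on the 4 compared libraries alone, or on the 8 P1 and P8 libraries alone, 3 members of this list were called higher. Under the replicate block or an unadjusted p the number was 2.

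Microglial genes were expressed at both days. Of 19 markers tested 6 were called lower and 2 higher (median -0.49), and their summed level ran from 6908 to 6912 CPM at P1 and from 6122 to 6183 CPM at P8. *C1qa*, the complement component made by microglia, had 1083 and 1084 CPM at P1 and 609 and 571 CPM at P8 (log2 fold change -0.88 ± 0.05 (SE), edgeR adjusted p = 8.6e-07). *Aif1*, the calcium-binding protein IBA1, had 105 and 105 CPM and 32.3 and 32.5 CPM (log2 fold change -1.69 ± 0.08 (SE), edgeR adjusted p = 1.9e-07), and *P2ry12*, a purine receptor of resting microglia, 21.8 and 21.01 CPM and 10.3 and 7.59 CPM. The call of *P2ry12* was lost without P1 WT replicate 1 (adjusted p = 0.0698), P1 WT replicate 2 (0.0615) or P8 WT replicate 2 (0.131). *Cx3cr1*, the fractalkine receptor, was not called, with 77.99 and 68.9 CPM at P1 and 58.6 and 61.2 CPM at P8. *Mrc1*, the mannose receptor of border macrophages, went up from 106 and 106 CPM to 703 and 726 CPM (log2 fold change 2.75 ± 0.06 (SE), edgeR adjusted p = 1.4e-09).

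Interferon-stimulated genes were lower at P8. These genes are switched on when interferon receptors activate STAT and IRF factors, which bind the interferon-stimulated response element (ISRE) in the promoter. Of 29 tested, 22 were called lower and 1 higher (median log2 fold change -1.43), and the summed level went from 10711 to 10848 CPM at P1 to 4754 to 5290 CPM at P8. *Rsad2* (chr12:26442746-26456452, minus strand), the antiviral enzyme viperin, had 131 and 138 CPM at P1 and 16.2 and 10.6 CPM at P8 (log2 fold change -3.33 ± 0.39 (SE), edgeR adjusted p = 8.7e-05). *Irf7*, the factor that amplifies the response, had 176 and 172 CPM and 30.4 and 20.03 CPM (log2 fold change -2.79 ± 0.47 (SE), edgeR adjusted p = 0.00096), *Ifit3* 516 and 474 CPM and 112 and 56.7 CPM (log2 fold change -2.56 ± 0.57 (SE), edgeR adjusted p = 0.0049), and *Oas3*, a sensor of double-stranded RNA, 100.4 and 102 CPM and 27.97 and 13.7 CPM (log2 fold change -2.28 ± 0.41 (SE), edgeR adjusted p = 0.0013). For these 4 genes the P8 replicates were well apart, replicate 1 being the higher, and both still lay below the P1 libraries. The class I antigen genes were steadier, with *H2-K1* at 1357 and 1356 CPM at P1 and 434 and 409.5 CPM at P8 (log2 fold change -1.69 ± 0.05 (SE), edgeR adjusted p = 8.1e-09) and *B2m* at 3237 and 3272 CPM and 1594 and 1623 CPM (log2 fold change -1.02 ± 0.07 (SE), edgeR adjusted p = 1.9e-06). *Ifitm1* was the member called higher, from 8.10 and 8.995 CPM to 83.4 and 84.3 CPM (log2 fold change 3.29 ± 0.15 (SE), edgeR adjusted p = 1.1e-07). The count of 22 depended on the spread at P8, and without P8 WT replicate 2 it was 12. *Ifit3* and *H2-K1* have close relatives in the genome, with which they may share reads.

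The 250 bases before the RefSeq start were searched on both strands for the ISRE core, which is GAAA, any pair of bases and GAAA. It was present in 10 of the 24 interferon-stimulated genes with a promoter entry (41.7%), and in 936 of 27025 genes (3.46%) in all. Among the genes of the list that were called lower, 9 of 18 held it. The windows of 3 that fell are shown, with the matches in capitals (read on the other strand the core is TTTC, any pair of bases and TTTC). The sequences are RefSeq's, 5′ to 3′ on the gene's strand in GRCm38.p6, for *Rsad2* at chr12:26456453-26456702 (minus strand), *Ifit3* at chr19:34583279-34583528 (plus strand) and *Oas3* at chr5:120777660-120777909 (minus strand).
Rsad2: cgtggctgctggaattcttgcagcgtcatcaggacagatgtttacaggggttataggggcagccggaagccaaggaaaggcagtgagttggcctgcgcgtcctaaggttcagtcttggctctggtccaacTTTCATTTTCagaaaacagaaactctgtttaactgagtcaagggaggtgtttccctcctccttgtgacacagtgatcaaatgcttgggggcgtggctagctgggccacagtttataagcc
Ifit3: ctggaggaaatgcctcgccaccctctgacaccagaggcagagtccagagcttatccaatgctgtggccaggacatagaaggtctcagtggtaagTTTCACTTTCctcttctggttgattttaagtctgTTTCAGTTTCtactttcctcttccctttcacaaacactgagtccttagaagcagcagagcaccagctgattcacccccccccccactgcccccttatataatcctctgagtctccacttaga
Oas3: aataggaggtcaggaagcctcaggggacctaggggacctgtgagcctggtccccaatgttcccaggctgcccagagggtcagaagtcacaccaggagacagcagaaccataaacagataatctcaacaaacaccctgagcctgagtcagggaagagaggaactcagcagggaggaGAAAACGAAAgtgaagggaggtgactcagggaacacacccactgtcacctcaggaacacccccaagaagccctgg
*Ifit3* held 2 matches and the others 1 each, starting 156 bases (*Ifit3*), 120 bases (*Rsad2*) and 75 bases (*Oas3*) before the start site. A match is a description of the letters and not of binding in these cultures.

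Chemokines and interleukins fell as well. Of 29 tested, 20 were called lower and 5 higher (median -1.48), and *Cxcl10* belongs to the reactive astrocyte list too. *Ccl2*, which attracts monocytes, had 251 and 247 CPM at P1 and 17.2 and 15.2 CPM at P8 (log2 fold change -3.94 ± 0.13 (SE), edgeR adjusted p = 1.7e-08). *Ccl5* had 359 and 352 CPM and 14.2 and 15.1 CPM (log2 fold change -4.60 ± 0.28 (SE), edgeR adjusted p = 1.1e-06), and *Cxcl10*, an interferon-induced chemokine, 107 and 100.2 CPM and 5.53 and 4.65 CPM (log2 fold change -4.35 ± 0.16 (SE), edgeR adjusted p = 3.2e-08). These 3 fell by far more than the replicates differed. The cytokines *Il1a*, with 30.9 and 25.3 CPM and 0.521 and 0.319 CPM, *Il1b*, with 10.6 and 12.3 CPM and 0.605 and 0.651 CPM, and *Tnf*, with 62.7 and 64.99 CPM and 6.96 and 6.15 CPM, were likewise lower. *Csf1*, the growth factor of microglia, had 625 and 619.7 CPM at P1 and 274 and 273 CPM at P8 (log2 fold change -1.19 ± 0.04 (SE), edgeR adjusted p = 2.2e-08). *Ccl17* went from 0.536 and 0.479 CPM to 0, at least 22.3-fold lower, and *Cxcl9* from 26.1 and 24.02 CPM to 0.404 and 0.222 CPM. The 5 rises were *Cxcl12*, *Il33*, *Ccl8*, *Cxcl5* and *Il34*. *Cxcl12* (chr6:117168535-117181367, plus strand), a homing chemokine that meningeal cells are known to secrete, had 8.75 and 8.18 CPM at P1 and 428 and 443 CPM at P8 (log2 fold change 5.69 ± 0.41 (SE), edgeR adjusted p = 3.6e-06), and *Il33*, an alarmin of glia and stromal cells, 9.91 and 12.9 CPM and 180.1 and 175 CPM. The sum of the microglial markers, given above, changed by a ratio of 0.89 between the days, and this sum includes the rise of *Mrc1*. The ratio was 0.47 for the interferon-stimulated genes and 0.55 for the chemokines and interleukins. The median log2 fold changes of the 3 lists, in the same order, were -0.49, -1.43 and -1.48. The part of microglia in these falls was not tested.

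Genes for DNA replication were lower at P8 while most mitosis genes were not called, on the fold limit or the adjusted p. Of 30 replication genes 19 were called lower and 0 higher (median log2 fold change -0.74), with a summed level of 1204 to 1218 CPM at P1 and 824 to 835 CPM at P8. At a fold change of at least 2, 5 replication genes were called lower. At an unadjusted p below 0.05 with the same fold limit the count of members higher at P8 was again 0, it was 0 by DESeq2, and the counts of 0 given for the mural, cholesterol and polycomb lists were 0 by both as well. *Cdt1*, which licenses replication origins, had 19.3 and 20.4 CPM at P1 and 5.99 and 7.84 CPM at P8 (log2 fold change -1.52 ± 0.22 (SE), edgeR adjusted p = 0.00033). *Cdc6*, its partner in origin licensing, had 14.9 and 13.9 CPM and 6.16 and 5.87 CPM (log2 fold change -1.26 ± 0.11 (SE), edgeR adjusted p = 9.6e-06), and *Mcm5*, a subunit of the replicative helicase, 54.3 and 59.5 CPM and 29.3 and 30.3 CPM (log2 fold change -0.94 ± 0.10 (SE), edgeR adjusted p = 4.6e-05). *Rrm1*, a subunit of ribonucleotide reductase, stood slightly higher at P8, with 132 and 128 CPM and 169.6 and 169.99 CPM, under the fold limit. Of 30 mitosis genes 5 were called lower and 2 higher (median -0.21). *Mki67*, the proliferation antigen, had 235 and 235 CPM at P1 and 155 and 162 CPM at P8 (log2 fold change -0.57 ± 0.07 (SE), edgeR adjusted p = 0.00015), a difference just short of 1.5-fold, and it was called when P8 WT replicate 2 was left out (log2 fold change -0.60). *Espl1*, separase, was lower (26.03 and 24.7 CPM and 13.9 and 11.9 CPM) and *Cdc20*, an activator of the anaphase-promoting complex, was higher (14.6 and 15.7 CPM and 28.98 and 25.6 CPM). Without P1 WT replicate 2, 3 mitosis genes were called lower.

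E2F factors drive replication genes at the start of S phase through sites such as TTTCCCGC and TTTGGCGC. Either core, on either strand, was present within 250 bases before the start of 6 of 24 replication genes with a promoter entry, against 407 of 27025 genes (1.51%), and in 4 of the 16 that were called lower. The windows of *Cdc6*, at chr11:98907901-98908150 (plus strand), and *Mcm5*, at chr8:75109259-75109508 (plus strand), show the match in capitals, in each case on the other strand (RefSeq, GRCm38.p6, 5′ to 3′).
Cdc6: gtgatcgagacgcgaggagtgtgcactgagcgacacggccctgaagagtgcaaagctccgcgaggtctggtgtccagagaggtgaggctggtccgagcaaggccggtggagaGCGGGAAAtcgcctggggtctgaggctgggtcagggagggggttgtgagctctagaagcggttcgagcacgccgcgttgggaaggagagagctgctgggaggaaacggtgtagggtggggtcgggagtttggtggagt
Mcm5: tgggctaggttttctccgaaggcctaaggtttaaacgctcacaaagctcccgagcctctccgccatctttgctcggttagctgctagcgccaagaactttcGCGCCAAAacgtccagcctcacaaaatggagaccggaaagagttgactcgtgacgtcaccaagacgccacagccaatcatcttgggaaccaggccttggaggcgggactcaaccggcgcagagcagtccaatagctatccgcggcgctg
The matches start 138 bases (*Cdc6*) and 149 bases (*Mcm5*) before the start site.

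Imprinted genes and the insulin-like growth factor (IGF) axis rose at P8. Imprinted genes are expressed from 1 parental copy, and many of them control growth before and after birth. Of 24 tested 16 were called higher and 3 lower (median log2 fold change 1.60). *Igf2* (chr7:142650766-142666816, minus strand), a growth factor of fetal tissue and of leptomeninges, had 0.603 and 9.81 CPM at P1 and 5075 and 3058 CPM at P8 (log2 fold change 9.56 ± 0.96 (SE), edgeR adjusted p = 3.3e-05). The replicates of both days were apart, and the days did not overlap. *H19* (chr7:142575529-142578143, minus strand), the noncoding RNA of the same imprinted domain, had 8.33 and 10.6 CPM and 826 and 883 CPM (log2 fold change 6.49 ± 0.19 (SE), edgeR adjusted p = 8.1e-09). *Grb10*, an adaptor that restrains insulin receptor signalling, had 48.1 and 48.1 CPM and 1391 and 1388 CPM (log2 fold change 4.85 ± 0.06 (SE), edgeR adjusted p = 8.5e-11), and *Peg3*, a zinc finger factor, 28.3 and 28.1 CPM and 494 and 520.2 CPM. *Mest* was lower, with 70.6 and 72.6 CPM at P1 and 11.03 and 12.2 CPM at P8 (log2 fold change -2.62 ± 0.06 (SE), edgeR adjusted p = 2.1e-09). *Igf2* and *Dcn* are also in the fibroblast list. Of 18 genes of the IGF axis 10 were called higher and 3 lower (median 1.12). *Igfbp6*, a binding protein that prefers IGF2, had 0.453 and 0.283 CPM at P1 and 45.5 and 48.1 CPM at P8, and *Igfbp3*, the main carrier of IGFs in plasma, was lower, from 477 and 483 CPM to 86.3 and 84.2 CPM (log2 fold change -2.49 ± 0.05 (SE), edgeR adjusted p = 8.6e-10).

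Wnt ligands changed in both directions, and most secreted Wnt antagonists were higher at P8. Of 14 Wnt ligands 4 were called higher and 6 lower (median -0.20). *Wnt5a*, a non-canonical ligand, had 40.7 and 37.9 CPM at P1 and 68.8 and 70.7 CPM at P8 (log2 fold change 0.83 ± 0.11 (SE), edgeR adjusted p = 0.00028), *Wnt7b*, a ligand of neural tissue, 6.99 and 6.12 CPM and 0.740 and 0.499 CPM, and *Wnt16* 0 and 0.0983 CPM and 3.58 and 3.95 CPM. *Wnt3* went from 0.821 and 1.33 CPM to 0, at least 47.1-fold lower. Of 8 secreted Wnt antagonists 6 were called higher and 1 lower (median 3.21), with *Dkk2* at 0.536 and 0.393 CPM at P1 and 40.9 and 39.8 CPM at P8 (log2 fold change 6.45 ± 0.16 (SE), edgeR adjusted p = 3e-09) and *Sostdc1*, the fall, at 4.44 and 5.38 CPM and 0.454 and 0.706 CPM. *Sfrp1* differed by less than the limit, with 332 and 339.7 CPM and 241 and 237 CPM. Of 23 ligands and antagonists of the BMP and TGF-beta families 9 were called higher and 11 lower (median -0.55). *Fstl1*, a follistatin-like glycoprotein, had 379 and 370.3 CPM at P1 and 2177 and 2135 CPM at P8 (log2 fold change 2.52 ± 0.03 (SE), edgeR adjusted p = 4e-11), and *Gdf10* 2.63 and 2.46 CPM and 65.7 and 71.6 CPM (log2 fold change 4.75 ± 0.12 (SE), edgeR adjusted p = 3.2e-09). *Gdf6* fell, from 6.02 and 4.74 CPM to 0.168 and 0.416 CPM (log2 fold change -4.16 ± 0.29 (SE), edgeR adjusted p = 2.7e-06).

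Of 22 secreted factors that astrocytes use to shape synapses 10 were called higher and 9 lower (median -0.14), and the summed level went from 4561 to 4605 CPM to 12133 to 12396 CPM. *Thbs2*, a thrombospondin that promotes synapse formation and is also made by fibroblasts, had 93.8 and 95.6 CPM at P1 and 2717 and 2683 CPM at P8 (log2 fold change 4.83 ± 0.04 (SE), edgeR adjusted p = 9e-12), and *Sparc*, a matrix protein known to limit synapse formation, 1817 and 1829 CPM and 3969.9 and 3987 CPM (log2 fold change 1.13 ± 0.04 (SE), edgeR adjusted p = 2.1e-08). *Ntf3*, neurotrophin 3, was lower (2.23 and 2.003 CPM and 0.168 and 0.235 CPM). Of 10 neuropeptide genes tested 2 were called higher and 4 lower (median -0.85). *Penk* (chr4:4133531-4138819, minus strand), the precursor of the enkephalins, which meningeal and other stromal cells can express as well as neurons, went from 0.469 and 0.614 CPM to 289 and 318 CPM (log2 fold change 9.11 ± 0.23 (SE), edgeR adjusted p = 3.7e-09). *Gal*, galanin, went from 0.603 and 0.885 CPM to 0, at least 32.7-fold lower. The second rise of the list, *Pomc*, was lost without P1 WT replicate 1 (adjusted p = 0.206), P8 WT replicate 1 (0.127) or P8 WT replicate 2 (0.0976), without any 1 of the P6 WT and P8 cKO libraries (0.0613 to 0.0668), under the replicate block (0.0648) and on the 4 compared libraries alone (0.0632). Of 22 cholesterol synthesis genes 8 were called higher and 0 lower (median 0.45), and *Hmgcs1* stayed under the limit with 199 and 186 CPM and 248 and 249 CPM. At a fold change of at least 2, 0 cholesterol synthesis genes were called higher. Without P1 WT replicate 1, 5 of them were called higher. Among 14 genes for subunits and partners of polycomb repressive complex 2, counted together with *Zmynd8*, 0 were called higher and 1 lower. This was *Phf19*, an accessory subunit (11.8 and 15.1 CPM at P1 and 6.49 and 6.57 CPM at P8), while *Ezh2*, the methyltransferase, had 36.3 and 32.7 CPM and 27.5 and 23.6 CPM, and *Rbbp4*, a histone-binding subunit, 203 and 199 CPM and 154 and 159 CPM. Of the 5 sex-linked genes checked, 1 was called higher and 1 lower, *Ddx3y* going from 98.99 and 102 CPM to 174 and 139 CPM and *Xist* from 0.570 and 0.750 CPM to 0.185 and 0.152 CPM. Their calls (edgeR adjusted p = 0.029 and 0.043) were lost without P1 WT replicate 1 (adjusted p = 0.114 and 0.0689), without P1 WT replicate 2 (0.0944 and 0.175) or without P8 WT replicate 1 (0.167 and 0.115), and that of *Xist* also without P8 WT replicate 2 (0.173) and without any 1 of the P1 cKO and P6 libraries (0.0525 to 0.0578).

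**Figure D4:**
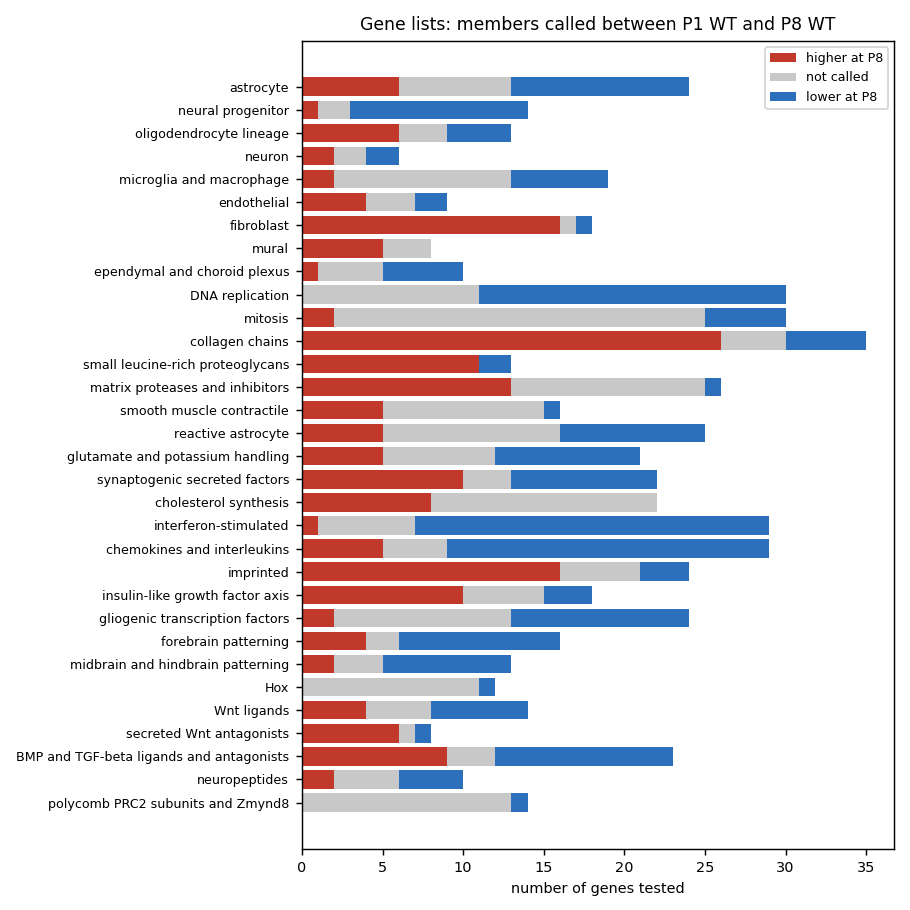
Each bar is a list of genes, divided into the number of members called higher at P8 (red), not called (grey) and called lower at P8 (blue) among those tested, on an axis that starts at 0. Red prevails in the fibroblast (16 of 18), collagen (26 of 35) and proteoglycan (11 of 13) lists, and blue in the neural progenitor (11 of 14), interferon (22 of 29) and DNA replication (19 of 30) lists.

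The P6 WT cultures were placed between the 2 days for most of the genes called, with the reservation that they come from libraries expressing *Xist*. The mean at P6 lay between those of P1 and P8 for 1918 of the 2580 genes that were higher at P8 and for 1752 of the 2692 that were lower. It lay beyond P8 for 486 and 561 of them, and beyond P1 on the other side for 176 and 379. These counts describe where the P6 means fell and were not tested. The genes were selected for a difference between P1 and P8, which makes a P6 mean in between more likely. The same share over all genes tested is not given. *Col1a1* stood at 2727 and 2719 CPM at P6 and *Dcn* at 174 and 181 CPM, both between the days. *Penk*, with 2.34 and 2.72 CPM, was still near its P1 level, and *Nes*, with 839 and 889.5 CPM, was at it. *Marco*, with 4.29 and 3.96 CPM, had already reached the P8 level, and *Ccl5*, with 0.363 and 1.20 CPM, *C3*, with 109 and 119 CPM, and *H2-K1*, with 109 and 117 CPM, were lower at P6 than at P8. The interferon-stimulated genes summed to 1787 and 2814 CPM at P6, below both other days.

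The change from P1 to P8 under the WT label was next compared with the same change under the cKO label. The interaction of day and label was tested directly in the same fit, and by edgeR's adjusted p alone 4606 genes (25.7% of the genes tested) differed in their change between the labels. Of the 2580 genes that were higher at P8 in WT, 2154 had a change of the same sign in the libraries labelled cKO and 426 of the opposite sign, with a median log2 fold change of 0.58 there against 1.38 in WT. The difference was called for 1402 of them, of which 1345 had a smaller or opposite change under the cKO label and 57 a larger one. Of the 2692 genes that were lower at P8 in WT, 2247 had the same sign under the cKO label, the medians were -1.26 in WT and -0.61 in cKO, and of 1302 differences called 1202 were towards a smaller or opposite change. The genes were selected on their change in WT, so these counts and medians are a description.

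Most fibroblast markers differed between the labels. The difference was called for 15 of the 18 members, each time towards a smaller rise or a fall under the cKO label. *Dcn* had 89.6 and 89.7 CPM in the P1 and 45.7 and 44.7 CPM in the P8 libraries labelled cKO, so it began higher than in WT and ended lower (difference in log2 fold change -8.34 ± 0.23 (SE), edgeR adjusted p = 2.7e-08). *Igf2* had 233 and 235 CPM and 46.8 and 41.2 CPM (difference -11.97 ± 1.16 (SE), edgeR adjusted p = 6.6e-05). *Col1a1*, with 1087 and 1065 CPM and 3929 and 3990.5 CPM, rose under both labels and less under cKO (difference -3.45 ± 0.06 (SE), edgeR adjusted p = 6e-09). *Penk* went down under the cKO label, from 4.51 and 5.55 CPM to 0.396 and 0.487 CPM (difference -12.60 ± 0.31 (SE), edgeR adjusted p = 1.3e-08). The summed level of the fibroblast list under the cKO label was 3214 and 3066 CPM at P1 and 8647 and 8976 CPM at P8, and the part of this in the other differences was not tested. *Gfap*, which did not change in WT beyond the limit, fell under the cKO label, from 578 and 559 CPM to 184 and 176 CPM (difference -1.60 ± 0.08 (SE), edgeR adjusted p = 1e-06). *Marco* fell under both labels, to 96.1 and 106 CPM in the P8 libraries labelled cKO (difference 4.34 ± 0.11 (SE), edgeR adjusted p = 1.8e-08). Among the genes named above for which the difference was not called were *Igfbpl1*, which fell (difference 0.01 ± 0.17 (SE), edgeR adjusted p = 0.99), and *Mrc1*, which rose (difference 0.17 ± 0.08 (SE), edgeR adjusted p = 0.15). Among the genes with a mean of at least 5 CPM, the most negative fitted differences between the labels were those of *Epyc*, *Ptgdr* and *Egfl6*, whose size depends on the prior count and which stood at 0 or near it in P1 WT and at no more than 1.85 CPM in any P1 or P8 library labelled cKO. The most positive were those of *Grem1*, a BMP antagonist, *Gm21982* and *Gdf6*. *Grem1* had 1.48 and 1.32 CPM at P1 and 23.8 and 22.5 CPM at P8 under the cKO label, and 1.94 and 1.88 CPM and 0.673 and 0.429 CPM in WT (difference 5.85 ± 0.27 (SE), edgeR adjusted p = 5.9e-07). *Gm21982* overlaps other genes in the annotation and its count may hold their reads.

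**Figure D5:**
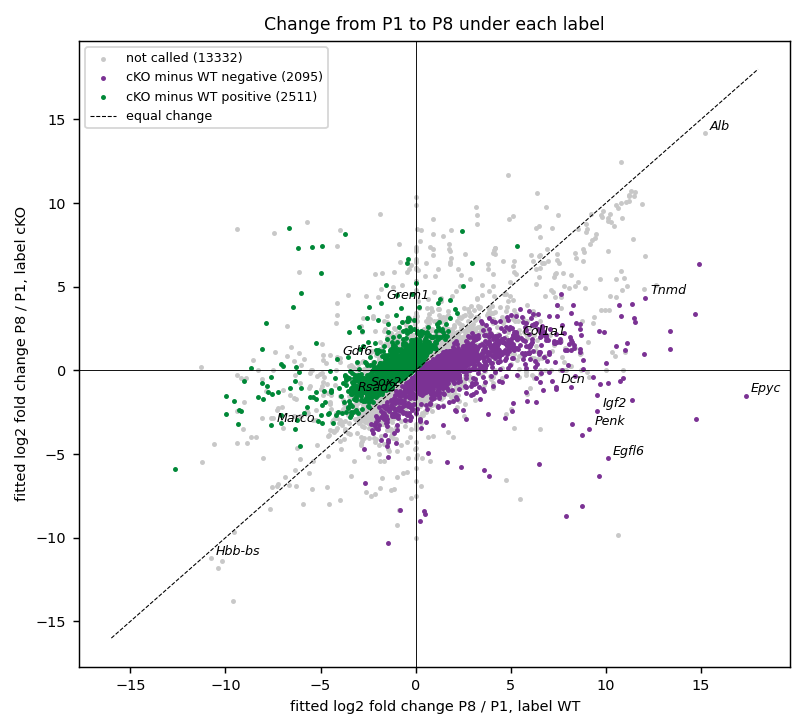
The fitted log2 fold change of P8 over P1 in the libraries labelled cKO (vertical axis) is plotted against that in WT (horizontal axis) for the 17938 genes tested, with genes in purple or green where the difference between the labels was called (4606 genes) and in grey where it was not (13332 genes). The coloured genes lie mostly nearer to the horizontal axis than the dashed line of equal change, *Col1a1* is above 0 under both labels, and *Igf2*, *Penk* and *Egfl6* are below 0 under the cKO label.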

How the data were processed

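The deposited table held raw gene counts per library. Per the labels and the study's methods, the authors mapped the reads with HISAT2 to mm10 (GRCm38). Neither the labels nor the methods name the counting program, its annotation or its use of strand. Reads of overlapping genes therefore cannot be told apart. Of 18903 Ensembl identifiers, 18861 were found in GENCODE vM21, which gave positions and overlaps, and all positions of genes are in GRCm38. The table held no columns of other samples.

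Counts of all 12 libraries were fitted with edgeR 4.0.16 (R 4.3.3), using TMM factors, filterByExpr, a mean for each of 6 groups and the quasi-likelihood F test, and p-values were adjusted over all genes tested. The study's methods give a p threshold of 0.05 and a fold limit of 1.5 without saying whether p was adjusted. Standard errors are the log2 fold change divided by the root of F. The interaction was called by adjusted p alone, so its counts are not comparable with those of a fold limit. The script was tested on simulated data. DESeq2 1.42.0 served as an alternative, and the closing section gives the effect of each.

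The groups were chosen by labels, but the lists, the tests and the members named were chosen with earlier results of these data known. Named genes were the 10 largest rises and the 10 largest falls with a mean of at least 5 CPM, the largest rise, the largest fall and the most abundant member of each list, the 3 most positive and 3 most negative differences between labels, *Zmynd8*, and further list members where they make up a count. Some items that this rule would name are not reported here. Where a group had no count, a fold was computed against 3 counts over the group. With 1 to 3 counts an exact 95% interval is given, and such intervals and limits cover counting error only. Promoter letters were counted in RefSeq windows of 250 bases.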

Additional observations from a re-analysis of the deposited data

Results flagged for a closer look

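Beside the 4606 genes in all, the change from P1 to P8 differed between the labels for 120 of the genes named, by the interaction of day and label in edgeR (adjusted p below 0.05). Each value is the log2 fold change under the cKO label minus that under the WT label, so a negative value is a smaller rise, a larger fall or a fall in place of a rise under the cKO label. No explanation was weighed for these differences, and 25.7% of all genes tested passed the same test. The genes named were chosen in large part for their change in WT, and some for their difference between labels, so that share is not a like background. Among all genes called in WT, the difference was called for 1402 of 2580 that were higher at P8 and 1302 of 2692 that were lower.

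In the neuropeptides list the differences were -12.60 for *Penk*. For the oligodendrocyte lineage genes they were -12.08 for *Cldn11*, -2.80 for *Mal*, -2.33 for *Cspg4*, -2.10 for *Sox10*, -1.28 for *Pdgfra*, 0.68 for *Mbp* and 1.83 for *Nkx2-2*. The fibroblast list had -11.97 for *Igf2*, -8.48 for *Lum*, -8.34 for *Dcn*, -5.63 for *Col3a1*, -5.42 for *Tbx18*, -5.13 for *Col1a2*, -3.67 for *Foxc1*, -3.45 for *Col1a1* and -2.98 for *Ogn*. Among other genes with the largest changes the differences were -7.76 for *Tnmd*, 3.54 for *Kcnip1*, 4.34 for *Marco* and 5.47 for *Gm21982*. In the smooth muscle contractile list the differences were -7.72 for *Actg2* and 1.71 for *Cnn1*. For the insulin-like growth factor axis genes they were -7.11 for *Igfbp6* and 1.08 for *Igfbp3*. The endothelial list had -6.80 for *Cdh5*, -2.94 for *Tek* and 1.98 for *Vwf*. Among small leucine-rich proteoglycans genes the values were -6.77 for *Aspn*, -2.68 for *Bgn* and 1.82 for *Prelp*. In the imprinted list the differences were -5.52 for *H19*, -4.24 for *Peg3*, -3.06 for *Grb10* and 2.04 for *Mest*. For the BMP and TGF-beta ligands and antagonists genes they were -5.08 for *Gdf10*, -1.60 for *Fstl1*, 4.84 for *Gdf6* and 5.85 for *Grem1*. The chemokines and interleukins list had -4.77 for *Cxcl12*, -2.51 for *Il33*, -1.31 for *Il34*, 0.70 for *Csf1*, 1.21 for *Cxcl10*, 1.57 for *Il1a*, 2.0004 for *Ccl5*, 2.41 for *Ccl2* and 2.52 for *Tnf*. Among synaptogenic secreted factors genes the values were -4.71 for *Thbs2* and -0.94 for *Sparc*. In the ependymal and choroid plexus list the differences were -4.34 for *Aqp1* and 0.74 for *Foxj1*. For the secreted Wnt antagonists genes they were -3.97 for *Dkk2* and 0.38 for *Sfrp1*. The matrix proteases and inhibitors list had -3.89 for *Mmp2*, -2.88 for *Adamts2* and -0.22 for *Timp3*. Among neural progenitor genes the values were -3.41 for *Egfr*, 1.12 for *Tnc*, 1.51 for *Sox2*, 1.53 for *Nes* and 1.65 for *Pax6*.

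In the glutamate and potassium handling list the differences were -3.26 for *Slc7a11*, -1.74 for *Slc38a2* and 0.69 for *Kcnk10*. For the midbrain and hindbrain patterning genes they were -2.80 for *Lmx1b* and 3.48 for *Pax2*. The astrocyte list had -2.65 for *Gja1*, -1.86 for *S100b*, -1.60 for *Gfap*, -1.54 for *Aqp4*, -0.44 for *Slc1a3*, 0.79 for *Aldh1l1* and 1.02 for *Clu*. Among interferon-stimulated genes the values were -2.58 for *Ifitm1*, 0.79 for *B2m*, 0.97 for *H2-K1*, 1.90 for *Rsad2* and 1.96 for *Oas3*. In the collagen chains list the differences were -2.49 for *Col4a2*, -1.74 for *Col4a1*, 0.70 for *Col4a6*, 0.89 for *Col22a1* and 1.83 for *Col4a3*. For the forebrain patterning genes they were -1.95 for *Zic1*, -1.73 for *Zic4*, -1.36 for *Zic5*, -1.28 for *Zic2* and 1.51 for *Otx1*. The neuron list had -1.61 for *Syt1* and 1.79 for *Stmn2*. Among reactive astrocyte genes the values were -1.43 for *Fbln5*, 0.50 for *C3* and 0.77 for *Vim*. In the mural list the differences were -1.05 for *Pdgfrb*. For the cholesterol synthesis genes they were -0.76 for *Hmgcs1*. The DNA replication list had -0.45 for *Rrm1*, 0.60 for *Mcm5* and 1.09 for *Cdt1*. Among polycomb PRC2 subunits and Zmynd8 genes the values were -0.44 for *Ezh2*. In the mitosis list the differences were 0.38 for *Mki67* and 0.67 for *Espl1*. For the microglia and macrophage genes they were 1.03 for *Cx3cr1*, 1.43 for *Aif1* and 1.45 for *C1qa*. The Hox list had 1.46 for *Hoxb4* and 5.81 for *Hoxc5*. Among gliogenic transcription factors genes the values were 1.78 for *Lhx2* and 3.93 for *Fezf2*.

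For genes with 3 counts or fewer in at least 1 of the 4 groups the fitted difference depends on the prior count and is not a measure of size. These values were -18.87 for *Epyc*, -17.66 for *Ptgdr*, -15.35 for *Egfl6*, -12.10 for *Atp6v0a4*, -11.31 for *Prdm6*, -10.9958 for *Dnah8*, -8.53 for *C4bp*, -8.39 for *Lrrc17*, 6.74 for *Lad1*, 6.75 for *Wnt3* and 8.78 for *Gal*.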

How the results depend on the processing

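None of the genes named changed direction under any alternative, namely DESeq2 size factors in edgeR, no filter on low counts, DESeq2 on all libraries, edgeR on the 4 compared libraries alone, edgeR on the 8 P1 and P8 libraries alone (chosen after seeing the data), the replicate block, an unadjusted p, a fold change of at least 2 and each of the 12 libraries left out in turn. The counts moved by more than 1.5 times only when the fold limit was raised to 2, which by construction leaves fewer genes, 1708 higher and 1719 lower. With single libraries left out the counts ran from 2295 to 2596 higher and from 2491 to 2698 lower, and the genes differing between labels from 3642 to 4727. Between 84.9% and 98.1% of the 5272 genes remained called in the same direction in those fits. An unadjusted p gave 2806 higher and 2874 lower. The share of higher genes among those called ran from 47.4% to 50.9%.

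Of the 151 genes named and called, 19 lost the call in at least 1 alternative, 9 of these only under a fold change of at least 2. Under that limit the members called lower numbered 7 in the astrocyte list, 3 in the microglia and macrophage list and 0 in the mitosis list. The member counts of lists moved by more than 1.5 times in 64 of 1320 recomputed counts. The labels do not say whether libraries with equal replicate numbers were prepared together, and the main fit did not pair them. The deviations of equally numbered libraries correlated between -0.06 and 0.04 across genes. This shows no shared shift but cannot tell how the libraries were prepared. The fit with the replicate block gave 2546 higher and 2659 lower genes. Depth does not limit the levels named above 1 CPM, while genes near 3 counts in a group have folds that only bounds can describe. With 2 libraries a day the spread of a single gene is poorly known.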
